A study of Mus musculus with 12 samples.

Results

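The 274 genes described here had RNA at least 2-fold higher in the MIWI immunoprecipitate (IP) than in the input in cells with the catalytic mutant of MIWI. In the other genotypes of the series they stayed under 2-fold. Both hold for a measure defined below that adds 1 to each level, and not for every plain ratio. The genes were chosen from 1 deposited table of RPKM, a read count divided by the gene's length in kilobases and by the depth of the column. Of the 20345 genes in that table, 12246 had at least 1 RPKM in at least 2 of 6 columns and are called kept genes. IP minus input is the difference of log2(RPKM + 1) between the IP and the input column of a genotype. The rule asked for a value of at least 1 in Miwi ADH/-, for values below 1 in both Miwi +/- and Miwi -/-, and for at least 4 RPKM in the Miwi ADH/- IP. Of the 591 kept genes that reached 1 in Miwi ADH/-, 87 reached it in Miwi +/- too, 58 in Miwi -/- too and 73 in all 3 genotypes. The other 373 were below 1 in both, and 99 of them lay under 4 RPKM, which left 274 genes (2.24% of the kept genes). They are listed as candidates for RNAs held by a MIWI that cannot cut. Whether they are held was not measured beyond these columns.

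The samples are late spermatocytes of mice of 3 genotypes. Miwi +/- has 1 working copy of the gene, Miwi -/- has none, and in Miwi ADH/- the only copy left carries the ADH allele. The labels give 2 samples for each IP and each input, 12 in all, depleted of ribosomal RNA. They give no age or number of animals, and they name testes or sorted cells as the source of RNA without saying which was used for which sample. All 3 genotypes share at least 1 missing or mutant allele, so no column comes from a wild-type animal.

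MIWI is a PIWI protein, an Argonaute of the male germ line that is loaded with pachytene piRNAs in meiotic cells and round spermatids. A piRNA guides its PIWI protein to RNAs with matching sequence, and the catalytic site of the protein can then cut the paired RNA. The ADH mutation changes the first residue of the catalytic triad, so that the protein can carry piRNAs but no longer cut. The Miwi -/- IP, made where the protein is absent, measures what the antibody and beads recover on their own.

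The table names genes by Ensembl ID only. The reference gene table matched 0 of the IDs, so symbols, the 11 gene lists chosen for this report, markers of late spermatocytes or other cell types, and the targeted gene gave no values, and the genotype and cell type labels could not be checked against them. No sequence is shown for the same reason. At most 2 IDs are named per comparison and other genes are described by their values.

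There is 1 column per genotype and fraction, and the sources used here do not say whether it holds 1 of the 2 samples or both pooled. Every difference below is between single columns and has no replicate check. Comparisons with Miwi +/- and with Miwi -/- share the Miwi ADH/- columns, so their values are given side by side and are not independent of each other. Read numbers follow from the steps in which RPKM values rise. The IPs held 4172540 (Miwi -/-) to 10581229 reads (Miwi ADH/-) and the inputs 5488630 to 7491509. These totals were chosen so that the largest share of gene lengths came out as whole numbers, which was 44.5% of those checked. Genes in the table account for 35.0% of all Miwi ADH/- IP reads, 29.3% with Miwi +/- and 18.3% with Miwi -/-, and for 47.9% to 53.7% of input reads. RPKM divides by all reads of a column, so this share lowers the listed genes of the Miwi -/- IP most. Ratios of reads are given with exact 95% Clopper-Pearson intervals, which cover counting error only.

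By median, the level of the 274 genes was highest in the IP of the mutant protein and lowest in the control IP. The IPs stood in the same order over all kept genes, so the order is not particular to the set. In the Miwi ADH/- IP the lowest, median and highest levels of the 274 genes were 4.01, 12.9 and 1796 RPKM. In the Miwi +/- IP the median was 7.95 RPKM, with 32 genes at 0, and in the Miwi -/- IP it was 3.47 RPKM, with 63 genes at 0. Of the 12246 kept genes, 1184 were at 0 in the Miwi +/- IP and 2897 in the Miwi -/- IP. The IP medians of the kept genes were 5.06 (Miwi ADH/-), 4.14 (Miwi +/-) and 1.62 RPKM (Miwi -/-). The input medians of the 274 genes lay closer together, at 4.83 (Miwi ADH/-), 7.62 (Miwi +/-) and 6.06 RPKM (Miwi -/-). The Miwi ADH/- input was thus the lowest of the inputs by its median. Over all kept genes the input medians were 6.90 (Miwi ADH/-), 7.37 (Miwi +/-) and 6.58 RPKM (Miwi -/-), with that of Miwi -/- the lowest. The rule asked for a low Miwi ADH/- input relative to its IP, so the levels of the 274 genes describe the choice and test nothing.

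**Figure D1:**
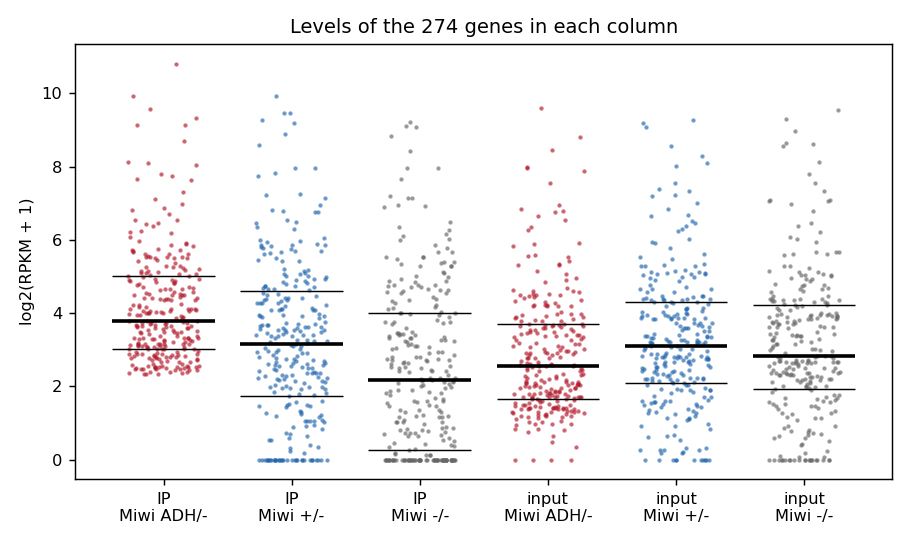
Level of each of the 274 genes, as log2(RPKM + 1), in the 3 IP and 3 input columns (1 point per gene, thick line for the median, thin lines for the quartiles). The Miwi ADH/- IP has the highest median, 12.9 RPKM, and the points on the floor of the Miwi +/- and -/- IPs are the 32 and 63 genes at 0. Of the 12246 kept genes, 1184 and 2897 were at 0 in these IPs.

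IP minus input had a median of 1.20 over the 274 genes in Miwi ADH/-, of 0.13 in Miwi +/- and of -0.38 in Miwi -/-. Over all kept genes the medians were -0.41, -0.77 and -1.37 in the same order. Most of the 274 stood just above the threshold in Miwi ADH/-: 72 were under 1.1, 161 were under 1.25, and 14 were at 2 or more. The quartiles were 1.10 and 1.38. The Miwi ADH/- value was at least 1 above that of Miwi +/- for 149 genes (20.5% of kept genes), above that of Miwi -/- for 208 (51.9%) and above the higher of the others for 134 (14%). Between the other genotypes, Miwi +/- was at least 1 above Miwi -/- for 89 genes (39.3%). Among all kept genes 4.83% were past 2-fold in Miwi ADH/-, while 4.24% were with Miwi +/- and 3.67% with Miwi -/-, and by the rule all of the 274 were in the first genotype and none in the others. All 6 columns enter the rule, so the shares of kept genes given beside the counts below are a background to read them against and not a test.

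The genes fell along a range in the other genotypes and did not form 1 group. In Miwi +/-, 87 of the 274 had an IP-minus-input value of 0.5 to under 1, 75 of 0 to under 0.5, 81 between -1 and 0, and 31 of -1 or below. In Miwi -/- these numbers were 47, 62, 75 and 90. Over all kept genes the quartiles were -1.43 and -0.09 in Miwi +/- and -2.38 and -0.44 in Miwi -/-. In 29 of the 274 genes both other genotypes were at 0.5 or more (the share of kept genes was not counted). Their medians were 0.78 in Miwi +/- and 0.77 in Miwi -/- against 1.18 in Miwi ADH/-, so these were above their input in the IP of every genotype. At the other end, 85 genes were below their input in both other genotypes (69% of kept genes were), with medians of -0.50 and -1.15. In 15 of these both values were -1 or below (31.3% of kept genes). Taken singly, the IP was above the input for 151 genes in Miwi +/- (21.4% of kept genes) and for 89 in Miwi -/- (12.9%), and at least 2-fold below it for 31 (40.6%) and 90 (60.9%).

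**Figure D2:**
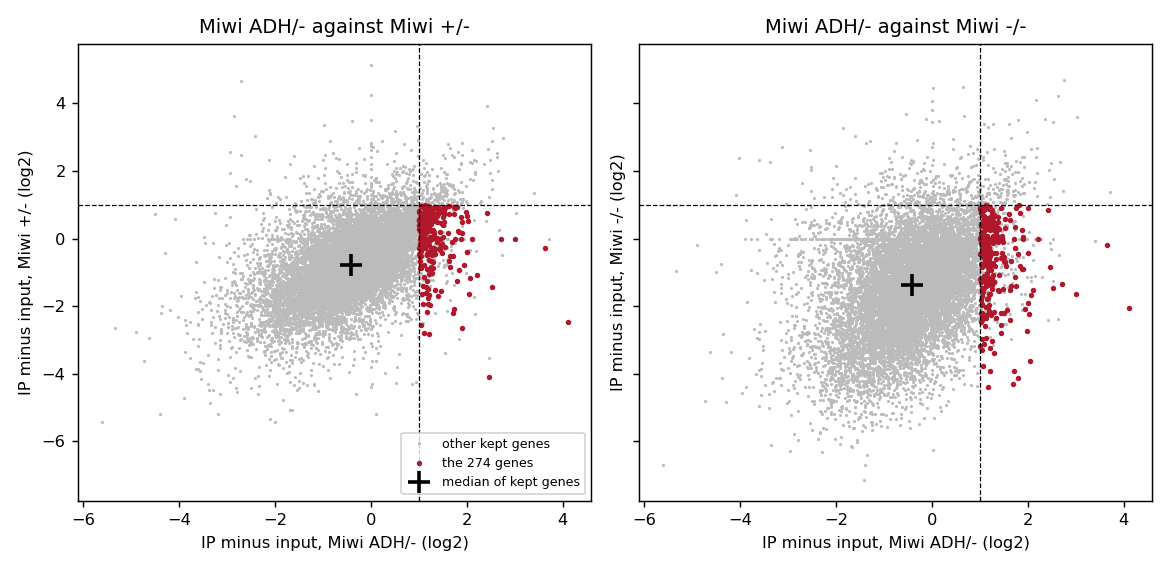
IP minus input (log2) in Miwi ADH/- on the horizontal axis against Miwi +/- (left) and Miwi -/- (right), with the 274 genes in red, the other kept genes in grey and dashed lines at the threshold of 1. The red points crowd along the vertical threshold line, with 161 of 274 under 1.25, and the cross marks the medians of the kept genes at -0.41, -0.77 and -1.37.

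Of the 14 genes with IP-minus-input values of 2 or more, 11 had under 10 reads in the Miwi ADH/- input and 5 were under 300 bases long. The other 3 were longer and had up to 369 IP reads. The genes with the 2 highest values were short and had few reads. ENSMUSG00000077345, of 87 bases, had 16.3, 1.95 and 2.75 RPKM in the IPs of Miwi ADH/-, +/- and -/- and 0, 15.3 and 14.6 RPKM in the inputs. The Miwi ADH/- column is the high one among the IPs and the low one among the inputs. Its value was 4.11, from 15 IP reads and no input read, so against a floor of 3 input reads the IP was at least 2.59-fold higher. Its IP ratio of Miwi ADH/- to Miwi -/- was 5.92 (0.910 to 249), since the control IP held 1 read. ENSMUSG00000089235, of 140 bases, had 11.5, 10.9 and 3.42 RPKM in the IPs and 0, 13.3 and 4.02 RPKM in the inputs. Its IP levels in Miwi ADH/- and +/- were 1.05-fold apart (0.443 to 2.68). The interval of its input ratio of Miwi ADH/- to Miwi +/- ended at 0.411. Against the Miwi -/- input that interval ran to 1.96 and included equality. Its value of 3.64 rests on 17 IP reads and no input read, at least 2.94-fold against the same floor.

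The genes with the highest Miwi ADH/- IP levels rested on many reads. ENSMUSG00000036211, of 909 bases, had 1796, 972 and 248 RPKM in the IPs of Miwi ADH/-, +/- and -/- and 774, 587 and 630 RPKM in the inputs. Its IP levels fell in the order of the genotypes while the inputs lay within a narrow range. The IP-to-input ratio was 2.32 (2.24 to 2.40) in Miwi ADH/-, 1.66 (1.59 to 1.73) in Miwi +/- and 0.394 (0.366 to 0.423) in Miwi -/-. ENSMUSG00000031762, of 556 bases, had 977, 709 and 124 RPKM in the IPs and 452, 622 and 748 RPKM in the inputs. Its ratios were 2.16 (2.04 to 2.30), 1.14 (1.08 to 1.21) and 0.165 (0.146 to 0.187). Both genes were recovered with either form of the protein far above the control, and the threshold of 2-fold lay between the genotypes.

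Other abundant genes of the set had control IPs as high as the others. The sixth by Miwi ADH/- IP level, of 1811 bases, had 562, 589 and 555 RPKM in the IPs of Miwi ADH/-, +/- and -/- and 247, 313 and 391 RPKM in the inputs. Its IP levels differed by little and the Miwi ADH/- input was the lowest. The seventh had 417, 471 and 542 RPKM in the IPs and 186, 256 and 282 RPKM in the inputs, so the control IP was the highest of all. For these genes the Miwi ADH/- ratio was set apart by the input column.

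Against Miwi +/-, the Miwi ADH/- IP was higher by a median of 0.76 and the input lower, with a median difference of -0.47 (0.21 and -0.16 over all kept genes). Against Miwi -/- the medians were 1.69 and -0.46 (1.05 and -0.18 over all kept genes). In 102 genes with a mean under 5 RPKM over the 6 columns, the median IP difference from Miwi +/- was 1.66 and the median input difference -0.15. In 107 genes of 5 to under 20 RPKM they were 0.55 and -0.61. In 49 genes of 20 to under 100 RPKM they were 0.12 and -0.60, and in the 16 genes of 100 RPKM and more they were 0.13 and -0.46. The classes use a mean that contains the Miwi ADH/- IP, in which the rule asks for at least 4 RPKM, so a low mean comes with low values in the other columns, and the order of the classes is a description of the choice.

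In counts, 100 of the 274 genes had at least 2-fold more in the mutant's IP than in both other IPs (14.9% of kept genes), and 20 were at least 2-fold lower in its input than in both other inputs (3% of kept genes). Both held for 6 genes, and neither for 160 (the shares of kept genes were not counted). Against 1 genotype at a time, the IP was at least 2-fold higher than that of Miwi +/- for 113 genes (18% of kept genes) and than that of Miwi -/- for 177 (51.8%), and it was the highest of the IPs for 213 (54.9%). The input was at least 2-fold lower than that of Miwi +/- for 52 genes (7.42%) and than that of Miwi -/- for 32 (6.54%). It was at least 2-fold higher for 23 (7.8%) and 34 (12.6%), shares close to those of the kept genes. In 51 genes the Miwi ADH/- IP level was below that of Miwi +/- (37.5% of kept genes), where the rule leaves only a lower Miwi ADH/- input. For 170 genes the Miwi ADH/- input was the lowest of the inputs (48.4% of kept genes).

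**Figure D3:**
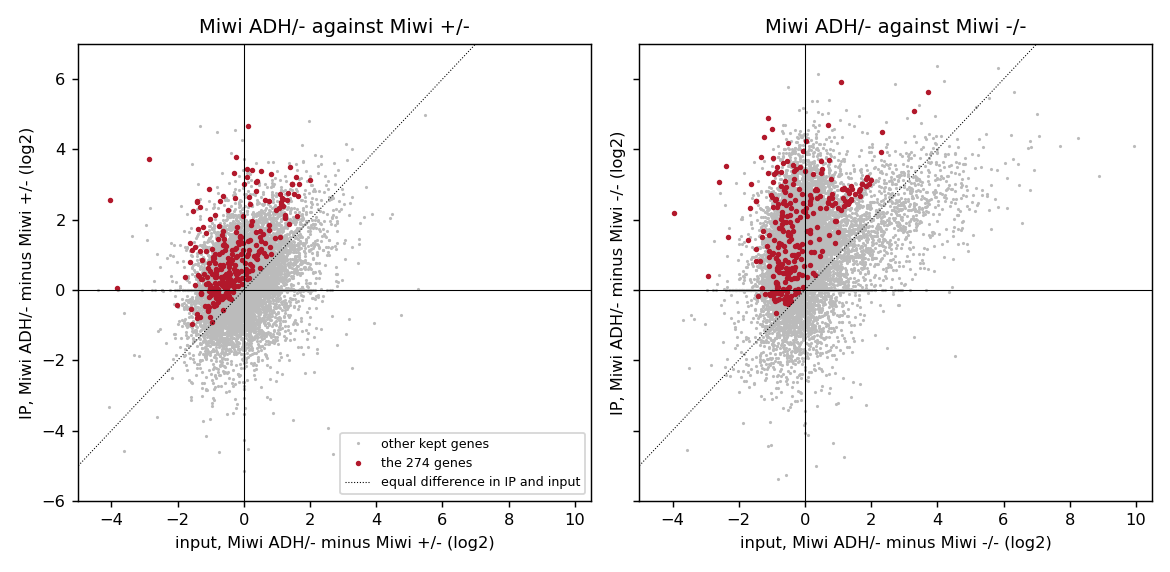
Difference of log2(RPKM + 1) between Miwi ADH/- and Miwi +/- (left) or Miwi -/- (right) in the inputs (horizontal) and in the IPs (vertical), with the 274 genes in red, the other kept genes in grey and a dotted line where both differences are equal. The red points lie above the dotted line by the rule and around medians of -0.47 (input) and 0.76 (IP) on the left and of -0.46 and 1.69 on the right.

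The 20 genes lower in the Miwi ADH/- input had a median of 3.47 RPKM there, against 14.3 in the Miwi +/- and 14.0 in the Miwi -/- input. Their IP medians were 13.2, 9.74 and 8.06 RPKM in Miwi ADH/-, +/- and -/-, which lie closer together than their inputs. One of them, of 1388 bases, had 25.1, 14.1 and 9.84 RPKM in the IPs and 5.51, 18.9 and 13.5 RPKM in the inputs. Its IP-to-input ratio was 4.54 (3.30 to 6.41) in Miwi ADH/-, 0.743 (0.585 to 0.940) in Miwi +/- and 0.729 (0.525 to 1.00) in Miwi -/-. Its input was 3.44-fold lower in Miwi ADH/- than in Miwi +/- (2.45 to 4.92), and its IP was 1.78-fold higher (1.44 to 2.21).

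In all, 29 genes were at 0 in both other IPs (6.73% of kept genes were), 1 of them among the 20 just described and 14 among those with a higher input described next. They had 4 to 124 reads in the Miwi ADH/- IP, with a median of 36, and 4.03 to 12.9 RPKM. With the Miwi ADH/- IP the deepest column, counting intervals set only 2 of these 29 apart from both other genotypes. One of the 2, of 1176 bases, had 124 reads (9.96 RPKM) in the Miwi ADH/- IP and none in the others, and its inputs had 3.87, 3.52 and 2.39 RPKM in Miwi ADH/-, +/- and -/-. Against a floor of 3 reads per column its Miwi ADH/- IP was at least 23.0-fold above that of Miwi +/- and at least 16.3-fold above that of Miwi -/-, with inputs whose counting intervals overlap equality. Here the IP alone differs.

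In 15 genes the Miwi ADH/- input was itself at least 2-fold above both other inputs (4.72% of kept genes were). The rule then fixes an IP difference larger still. In bulk samples, fewer cells of a type and less RNA per cell cannot be told apart. Medians were 5.83, 0 and 0 RPKM in the IPs of Miwi ADH/-, +/- and -/- and 2.14, 0.137 and 0 RPKM in the inputs. No counting interval set any of the 15 apart from both other genotypes. For such genes the values below 1 in Miwi +/- and -/- come with almost no reads in either fraction, and IP over input is not measured there.

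Of these 15 genes, 7 had the same read number in every column: 48 in the Miwi ADH/- IP, 8 in its input, 1 in the Miwi +/- input and 0 in the rest. Their lengths ran from 542 to 1012 bases, so their RPKM values differed, from 4.48 to 8.37 in the Miwi ADH/- IP. Another of the 274 genes had the same numbers except 10 reads in the Miwi ADH/- input. Whether the same reads were assigned to several IDs was not tested. The counts and medians given here take the 7 IDs separately. With them counted once the set has 268 genes, of which 23 were at 0 in both other IPs, 94 had an IP at least 2-fold above both others and 9 had an input at least 2-fold above both others. The medians of those 9 were 5.60 RPKM in the Miwi ADH/- IP and 1.83 RPKM in its input.

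Counting error alone leaves part of the set unresolved. The Miwi ADH/- interval lay above equality for 263 of the 274 genes and wholly above 2-fold for 96 (16.6% and 2.32% of kept genes, from columns the rule used). The Miwi +/- interval reached 2-fold or more in 90 genes (17.1% of kept genes), the Miwi -/- interval in 77 (17.7%), and either of them in 123 (27%). For 144 genes the Miwi ADH/- interval lay above both others (25.3% of kept genes), for 177 above that of Miwi +/- (31.8%) and for 191 above that of Miwi -/- (52.5%). In 44 genes the Miwi ADH/- interval was wholly above 2-fold and both others wholly below it (0.482% of kept genes, a combination close to the rule itself). In the Miwi ADH/- input, 47 genes had under 10 reads and 4 had none. The lower quartile there was 15 reads for the 274 genes and 20 for the kept genes, of which 141 had none. On plain ratios with no pseudocount, 22 of the 274 genes were at 2-fold or more in Miwi +/- and 10 in Miwi -/-. The shares of kept genes on plain ratios were not counted.

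In the 77 genes with at least 100 reads in each input, the distances between genotypes were shorter than over the whole set. Their median IP-minus-input values were 1.12 in Miwi ADH/-, 0.54 in Miwi +/- and 0.17 in Miwi -/-. The median distance from Miwi ADH/- to the higher of the others was 0.59, against 0.98 over all 274 genes. Counting intervals set 59 of the 77 apart, a larger share than the 47.8% of the 4395 kept genes of that depth. The rule used the same columns, so the larger share is no test. Of the 77, 9 had a distance of 1 or more. In 6 the IP was at least 2-fold above both other IPs. The shares of the 4395 kept genes that did so were not counted. This depth was reached by 28.1% of the 274 genes and by 35.9% of kept genes.

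The set depends on the scale of the columns. Measured from the median of all kept genes in each genotype, the 274 genes stood at medians of 1.61 in Miwi ADH/-, 0.89 in Miwi +/- and 0.99 in Miwi -/-. On that scale 232 genes lay above the median in Miwi +/- and 206 above it in Miwi -/- (50% of kept genes by construction), and 179 in all 3 genotypes (25.2% of kept genes). By this measure 91 of the 274 still met the rule. Of the 183 that did not, 76 were at 1 or more in both other genotypes, 46 in Miwi +/- only and 61 in Miwi -/- only. Median-of-ratios scaling kept 110 and equal totals over listed genes kept 120.

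On the deposited scale and on these 3 others, 81 genes met the rule throughout. They were scarcer than the other 193, with medians of 8.84, 2.996 and 0.495 RPKM in the IPs of Miwi ADH/-, +/- and -/-, against 16.3, 11.7 and 7.06 RPKM. Their IP-minus-input medians were 1.23, -0.44 and -1.50. Low values in Miwi +/- and -/- follow from the choice, since the other scales raise both. Against Miwi +/- their IP was higher by a median of 1.39 and their input differed by a median of -0.55. Counting intervals set 55 of the 81 apart from both other genotypes, and 7 had at least 100 reads in each input.

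The most abundant of the 81 among those with intervals apart and an IP at least 2-fold above both others are named here, chosen after their values were seen. ENSMUSG00000064177, of 381 bases, had 197, 65.1 and 25.8 RPKM in the IPs of Miwi ADH/-, +/- and -/- and 91.9, 60.7 and 73.2 RPKM in the inputs. Its IP was 3.02-fold above that of Miwi +/- (2.53 to 3.63) and 7.62-fold above that of Miwi -/- (5.56 to 10.7), and its input was 1.51-fold above that of Miwi +/- (1.23 to 1.87). ENSMUSG00000086279, of 492 bases, had 59.0, 11.4 and 0 RPKM in the IPs and 27.8, 13.6 and 12.6 RPKM in the inputs. Its IP was 5.18-fold above that of Miwi +/- (3.61 to 7.66), and its input was 2.05-fold above (1.41 to 2.99). Both fractions of both genes were highest in Miwi ADH/-.

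**Figure D4:**
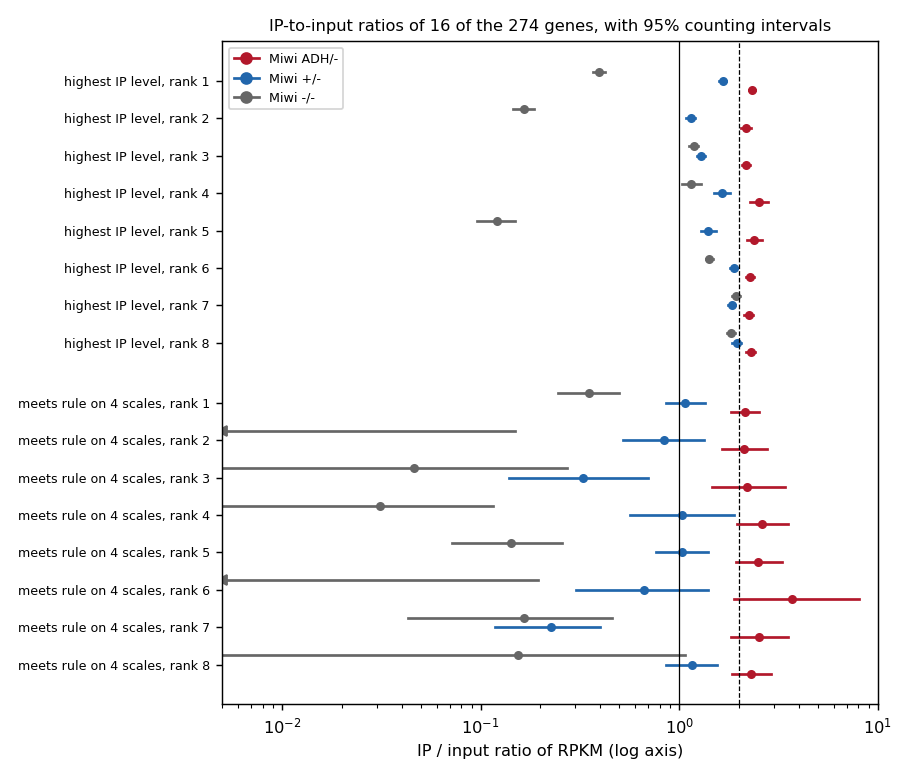
IP-to-input ratio of RPKM (log axis) with 95% counting intervals in the 3 genotypes, for the 8 genes with the highest Miwi ADH/- IP level and for 8 of the genes that met the rule on 4 scales. Solid and dashed lines mark equality and 2-fold, and the axis ends at 0.005, and a triangle there marks a ratio of 0. In the upper genes the Miwi +/- ratio runs from 1.14 to 1.95 and the control ratio from 0.121 to 1.92, and in the lower genes the Miwi ADH/- ratio lies right of both others, as these genes were chosen to show.

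Gene length was not used by the rule. The median length of the 274 genes was 1512 bases, with quartiles of 865 and 2310, against 1617 bases over all kept genes (996 and 2542). Genes under 300 bases made up 7.30% of the set (20 genes) and 2.79% of kept genes. Of the 342 kept genes in that class 5.85% were in the set, against 1.58% to 2.23% of the longer classes. The short genes had few reads, with a median of 1 in the Miwi ADH/- input, and counting intervals set 3 of the 20 apart from both others. Their medians of IP minus input were 1.64 in Miwi ADH/-, -0.75 in Miwi +/- and -0.83 in Miwi -/-. In the 16 genes of 4000 bases and more these were 1.09, 0.50 and -0.34, with a median of 255 reads in the Miwi ADH/- input.

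**Figure D5:**
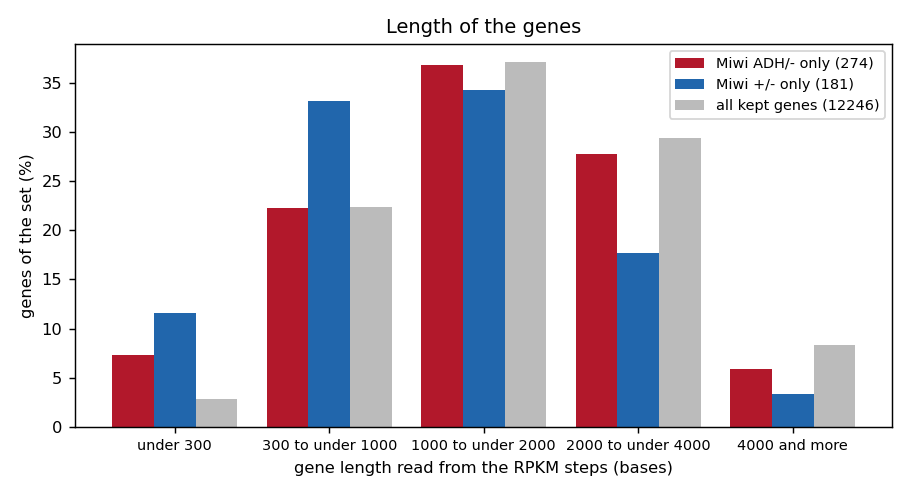
Share of genes (%) in 5 classes of length, for the 274 genes, for the 181 genes that meet the same rule turned to Miwi +/-, and for all 12246 kept genes. Genes under 300 bases make up 7.30%, 11.6% and 2.79% of the sets, and in the other classes the shares of the 274 genes lie near those of the kept genes.

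The same rule turned to Miwi +/- gave 181 genes. With Miwi +/- their median value was 1.41, with Miwi ADH/- it was 0.11 and with Miwi -/- it was -0.98. The share set apart from both others by counting intervals was 44.2% (4.27% of kept genes), against 52.6% for the 274 genes (25.3%). The IP was at least 2-fold above both other IPs in 39.2% of them (5.10% of kept genes), against 36.5% (14.9%). They rested on fewer reads, with medians of 60 in the Miwi +/- IP and 17 in its input, against 222.5 and 41.5 for the 274 genes in the Miwi ADH/- columns, and were shorter, with a median of 1177 bases. No test of the difference between the sets was possible with 1 column per group.

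Summed over the 274 genes, their share of the listed reads was 5.09% in the Miwi ADH/- IP, 4.97% in the Miwi +/- IP and 5.88% in the Miwi -/- IP, against 1.60%, 1.96% and 1.96% in the inputs. Among listed reads the set was therefore 3.19-fold richer in the IP than in the input in Miwi ADH/-, 2.53-fold in Miwi +/- and 2.99-fold in Miwi -/-. Per total reads these ratios were 2.33, 1.42 and 1.02. Abundant genes weigh most in such sums. For the 16 genes with a mean of 100 RPKM and more, the ratios among listed reads were 3.07 in Miwi ADH/-, 2.73 with Miwi +/- and 3.22 with Miwi -/-, so the control was the highest. For the 209 genes with a mean under 20 RPKM, the ratios among listed reads were 3.58 in Miwi ADH/-, 2.18 in Miwi +/- and 2.00 in Miwi -/-.

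Genes just inside and just outside a threshold were close in the value that it cuts, and could differ widely in their other values. The lowest value inside the Miwi ADH/- threshold belonged to a gene with 24.1, 19.2 and 17.6 RPKM in the IPs of Miwi ADH/-, +/- and -/- and 11.6, 10.7 and 9.15 RPKM in the inputs, and IP-minus-input values of 1.00, 0.80 and 0.88. The nearest gene outside, at 1.00 (before rounding below 1), had 5.08, 0 and 0 RPKM in the IPs and 2.04, 0.149 and 0 RPKM in the inputs. Next to it stood a gene with 9.24, 8.09 and 8.87 RPKM in the IPs and 4.12, 3.59 and 5.68 RPKM in the inputs, with values of 1.00 (again below 1 before rounding), 0.99 and 0.56. Within 0.1 of the threshold lay 72 genes inside it and 76 outside that met the rest of the rule. The gene nearest to 1 in another genotype had 1.14 in Miwi ADH/-, -0.29 in Miwi +/- and 0.99 in Miwi -/-, with 4.79, 1.52 and 4.49 RPKM in the IPs. Nearest outside by Miwi +/- was a gene with values of 1.23, 1.01 and 0.68. By level, the lowest gene inside had 4.01 RPKM in the Miwi ADH/- IP and the highest outside 3.99 RPKM.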

How the data were processed

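The authors deposited 1 table of RPKM in 6 columns, 1 per genotype and fraction. Only the Miwi +/- columns carry the unit, per the file headers, and the others were taken as RPKM because they step in the same proportions. Per the submitters' processing notes, TopHat, Bowtie and the mm9 build were used, in an unstated order. The sources used here do not give the counting tool or annotation.

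All 6 columns were used, with Python 3.11.15, numpy 2.4.6, pandas 2.3.3 and scipy 1.17.1. Each gene's reads were taken as the smallest whole numbers in the proportions of its depth-scaled values, within 0.002 reads plus 1e-07 of the number, and 100% of genes gave such numbers. For the 23 members with values in 2 or 3 columns the true reads may be a multiple. Column totals are those for which the largest share of gene lengths comes out whole (44.5% of 7527 lengths under 2500 bases within 0.05, against 10% by chance and 28.0% for the next candidate). Read recovery, the rule and the intervals were tested on simulated data. The simulated rise was far larger than most values here, and only genes with more input reads than many members have were raised. The simulation does not show how well the rule finds genes near the threshold or with few reads.

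The model tests planned for replicates could not be run on single columns. The members, gene lists and comparisons were chosen with earlier results of these data known. Genes were to be named by highest IP minus input, largest distance to the other genotypes, highest Miwi ADH/- IP level or nearness to a threshold. Alternatives were the pseudocount, the filter, the level, the threshold and 3 column scales.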

Additional observations from a re-analysis of the deposited data

Results flagged for a closer look

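With 1 column per genotype, the IP-minus-input values of 85 of the 274 genes pointed one way in Miwi ADH/- and the opposite way in both Miwi +/- and Miwi -/-. In 15 of them the difference was at least 2-fold in each direction. These were picked out because the genotypes stand on opposite sides of equality, and the difference between genotypes was not tested. Among all kept genes 69% were below their input in both Miwi +/- and Miwi -/-, against 31.0% of the 274 genes. The side of equality depends on the scale: of the 85 genes, 15 were still below input in both when measured from the median of kept genes, 27 by median-of-ratios scaling and 29 with equal listed totals, and of the 15 genes 1, 5 and 5 were still at least 2-fold below.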

How the results depend on the processing

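No paired analysis was possible because the columns carry no replicate number. For the same reason no replicate could be left out. A further 3 alternatives for the number of genes were added after seeing the data: the same read numbers counted once (268), at least 10 reads in each input (206) and counting intervals apart from both other genotypes (144). The number of genes stayed within 1.5 times 274 under 3 other pseudocounts, without the filter, with 2 or 8 RPKM as the level and on 3 other column scales (187 to 364), although the scales kept only 91 to 120 of the 274. It was 168 with at least 1 RPKM in all 6 columns, 421 at a threshold of 0.75, 80 at 1.5, and 85 with both other genotypes below 0. Over the same 274 genes, the median IP minus input in Miwi ADH/- was 1.37, 1.29 and 1.09 with pseudocounts of 0.1, 0.5 and 2. With 0.1 the median distance was 1.27 to Miwi +/- and 1.99 to Miwi -/-, and with 2 the latter was 1.36. Measured from the median of kept genes, by median-of-ratios scaling and with equal listed totals, in that order, median IP minus input was 1.61, 1.55 and 1.58 in Miwi ADH/- and 0.89, 0.90 and 0.88 in Miwi +/-. In Miwi -/- it turned from -0.38 to 0.99, 0.80 and 0.50, since these scales raise the Miwi -/- IP most. The median distances were then 0.73, 0.74 and 0.80 to Miwi +/- and 0.57, 0.93 and 1.26 to Miwi -/-. Median input differences were -0.31, -0.23 and -0.35 from Miwi +/- and -0.28, -0.28 and -0.31 from Miwi -/-. Median IP differences were 0.55, 0.57 and 0.51 from Miwi +/- and 0.64, 0.64 and 0.97 from Miwi -/-. For the 27 genes that the naming rule picks, all 162 values of IP minus input in Miwi ADH/- under 6 alternatives were above 0, and 158 were at least 1. All 27 were at 1 or more there by the rule, and the 3 scales raise that value, so these counts are no check. The other genotypes, through which alone the scales removed members, were not followed for these 27 genes. Depth limits the scarce genes most: 3 reads in a gene of 1000 bases are worth 0.284 RPKM in the Miwi ADH/- IP and 0.719 RPKM in the Miwi -/- IP.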

Other observations

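Besides the members that share read numbers, 3 kept genes outside the set had 48 reads in the Miwi ADH/- IP, 10 in its input, 1 in the Miwi +/- input and 0 elsewhere, as 1 gene of the set did. Among 11738 kept genes with at least 30 reads in all, 33 had the same 6 read numbers as another.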
